A study of Mus musculus with 4 samples.

Results

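Of 72251 accessible regions merged from 4 ATAC-seq peak lists of B16-F10 cells, 491 were called in both wild-type libraries, in neither Ssbp4 knockout library, and within 2 kb of a region that all 4 libraries shared. A region called in all 4 libraries is named retained here, and there were 44000 of them. A region called in both wild-type and neither knockout library is named lost, and there were 5122, or 7.09% of all merged regions. The 491 regions are therefore small open sites that were missing from the lists of the knockout cells, beside an open region that stayed in them. They are called flanking losses below, and the retained region nearest to each is called its neighbour. The regions were chosen by the presence and absence of calls, so their absence from the knockout lists is a description and carries no test. A list holds no value where nothing was called, and a missing call does not show that the signal was absent.

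B16-F10 is a mouse melanoma cell line. The 2 wild-type libraries are labelled as wild type for SSBP4, and the treatment protocol names a control guide against an intergenic part of chromosome 2, electroporated with Cas9. The 2 knockout libraries come from cells electroporated with Cas9 and a mixture of guides against Ssbp4, and the labels name no single clone. All libraries were made from thawed cells, and the labels number the 2 libraries of a genotype without naming separate cultures, so the spread within a genotype may be technical only.

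In ATAC-seq the Tn5 transposase cuts DNA that is not wrapped in nucleosomes, and open promoters and enhancers appear as peaks of insertions. Enhancers often lie in groups, with weaker open sites beside a strong one, and such sites can open and close separately. Ssbp4 belongs to a family of single-stranded DNA-binding proteins that act with LDB1, a cofactor that LIM-domain and GATA-type transcription factors use to bring enhancers and promoters together. Genes, promoters, motifs and DNA sequences at the regions were not analysed here, because the lists and the reference tables at hand use different mouse builds. Regions are given by their position in GRCm39, and neither the knockout of Ssbp4 nor the melanocyte identity of the cells was checked.

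The lists held 50068 to 63080 calls on the standard chromosomes. With the rule applied to 3 libraries, the number of flanking losses was 1035 without wild-type replicate 1, 783 without wild-type replicate 2, 700 without knockout replicate 1 and 1083 without knockout replicate 2, since a list fewer makes the rule looser. Both knockout lists were shorter, and had a lower median fold enrichment (4.58 and 4.73), than both wild-type lists (5.87 and 6.20). Fold enrichment is the authors' value at the summit of a call, the reads piled up there over the local background. The read depth of the libraries is unknown, and the genome-wide background recovered from the lists was 14.7 and 15.1 reads in the wild type against 17.2 and 17.4 in the knockout. Lower enrichment in both knockout libraries thus moves with every loss described here, and its part in the losses was not tested.

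The flanking losses were short and weak calls. They were 343 to 1420 bp long. Their median length was 525 bp, while the 4631 lost regions further away had 545 bp and the neighbours 1113 bp. Each had a single call in each wild-type library. The shortest call was 337 and 307 bp in the wild-type lists, against 380 and 338 bp in the knockout lists. By merged length, which spans both wild-type calls, 24 flanking losses were shorter than any call of knockout replicate 1, and 0 than any of replicate 2. Their single wild-type calls were shorter, from 337 bp in replicate 1 and 307 bp in replicate 2, with a lower quartile of 393 bp in each. These counts by merged length therefore understate how many single calls lay under the limit. The part of this length limit in the losses was not tested. The 2 wild-type summits lay a median of 24 bp apart, and within 50 bp in 331 regions (67.4%). Lost regions further away had the same median, 24 bp, and 69.5% within 50 bp. The rule asked for overlapping calls in both wild-type libraries, which favours close summits. The fold enrichment ran from 1.28 to 7.08 in wild-type replicate 1, with a median of 2.70, and from 1.23 to 8.16 in replicate 2, with a median of 2.93. It was higher in replicate 2 for 343 of the 491 regions (69.9%), and the same held for 84.7% of the retained regions. Ranked by the −log10 p-value within its own list, the median flanking loss lay at the 17.9th percentile of replicate 1 and the 20.7th of replicate 2, and 455 (92.7%) lay in the lower part of both lists, at or below the 50th percentile. Only 20 (4.07%) lay above the 50th percentile in both, a share close to the 4.32% of the lost regions further away.

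**Figure D1:**
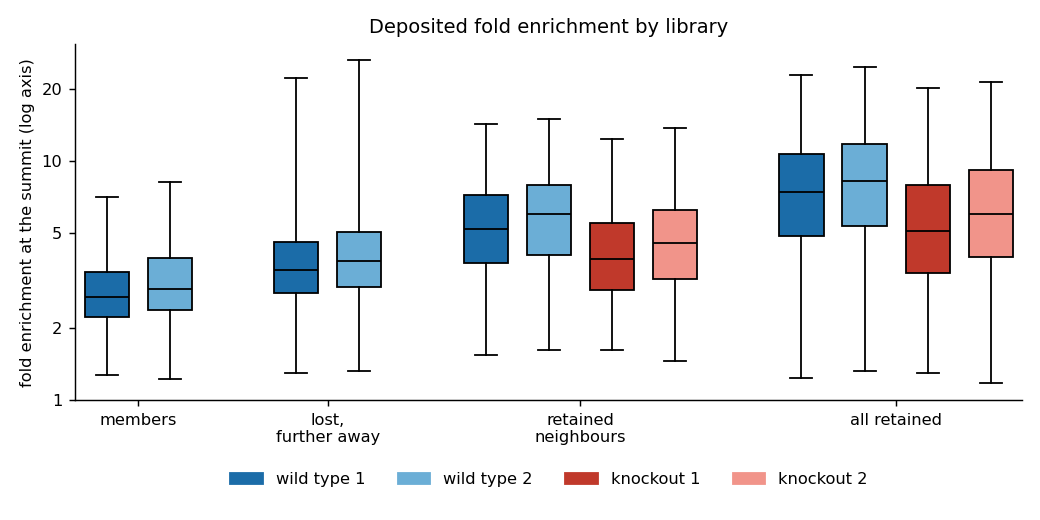
Deposited fold enrichment at the summit, on a log axis, for flanking losses (labelled members), lost regions further away, the neighbours and all retained regions, by library. Boxes span the quartiles with the median as a line, and whiskers reach the lowest and highest value. Lost regions have no knockout value because no knockout call exists. Flanking losses had medians of 2.70 and 2.93, the lowest of the 4 sets.

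The gap between a flanking loss and its neighbour, measured edge to edge, had a median of 1170 bp and quartiles of 803 and 1575 bp. A gap of up to 500 bp was found at 34, and 152, 158 and 147 fell in the next 3 steps of 500 bp. All regions called in both wild-type libraries were likewise fewest in the first step, at 656, 1686, 1629 and 1475, and no list held 2 calls closer than 308 bp. In wild-type replicate 1 the summits of the loss and of its neighbour lay a median of 2082 bp apart, and in replicate 2 they lay 2109 bp apart. There were 246 losses on the side of higher coordinates and 245 on the other side. The 491 losses had 490 different neighbours. The 3 smallest gaps were 59 bp at chr17:32465095-32465532, 148 bp at chr5:43667173-43667833 and 227 bp at chr4:154224723-154225542. The first had folds of 2.12 and 2.23 and a strong neighbour, at 10.0 and 9.97 in the wild type against 6.21 and 6.91 in the knockout. The second had 3.95 and 3.47, with a weak neighbour whose knockout folds, 3.19 and 3.31, lay between its wild-type folds. The third had 1.91 and 2.05, with a neighbour at 9.85 and 11.5 against 7.17 and 9.44. Both strong neighbours were thus lower in both knockout libraries, and the weak one was not. These 3 gaps lie between merged edges. The gaps within each wild-type library were wider, since its calls lay at least 338 or 308 bp apart. The 3 neighbours spanned most in knockout replicate 1, at 1394, 787 and 1312 bp in the same order. They spanned 1015 and 988, 462 and 462, and 879 and 729 bp in the wild type, and 897, 557 and 770 bp in knockout replicate 2. At the limit, chr6:100873488-100874306 and chr16:29527931-29528287 lay exactly 2000 bp from their neighbours, with wild-type folds of 3.65 and 4.19 at the former and 3.95 and 4.03 at the latter, and chr14:27066495-27066942 lay at 1992 bp with 3.06 and 2.97. Just outside it, chr6:54744858-54745339 lay at 2002 bp with folds of 3.38 and 3.28, and chr2:167425203-167425945 at 2005 bp with 2.58 and 2.25, as did chr1:30979035-30980107 with 2.64 and 2.24. By the lower of the wild-type percentiles, the 3 regions just inside lay at 23.3 to 26.9 and the 3 just outside at 3.69 to 14.4. Lost regions as a whole showed no such step. Their median percentiles in the 2 wild-type lists were 18.7 and 19.2 at gaps from 1.5 to 2 kb, and 19.4 and 23.0 from 2 to 5 kb.

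Within each wild-type library the lost site was usually the smaller of the pair. Its summit pileup, the number of reads over the summit, which fold and p-value together give back, was a median of 53.6% of the neighbour's in replicate 1 and 53.1% in replicate 2. In 57 pairs (11.6%), however, the site that was lost had the higher pileup in both wild-type libraries. The highest-ranked flanking loss of all was among them. These ratios were not taken for other pairs of regions within 2 kb, so they are not called particular to the flanking losses.

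The region chr1:89382188-89382705, 518 bp long, had a fold of 6.06 and a pileup of 382 reads in wild-type replicate 1, and a fold of 7.29 and 573 reads in replicate 2. It lay at the 71.6th and 78.5th percentiles of the 2 lists. Its neighbour begins 488 bp further along and had folds of 3.90 and 3.71 in the wild type against 3.48 and 3.29 in the knockout. The stronger site was thus without a knockout call, while the weaker one was called in every library, with the knockout folds a little below both wild-type folds. By pileup the weaker site differed more, with 229 and 274 reads in the wild type against 168 and 168 in the knockout. In multiples of the genome-wide background of each library these were 15.6 and 18.1 against 9.78 and 9.63. At chr15:12266549-12267125 the folds were 6.42 and 7.93, and its neighbour, 569 bp away, had 5.76 and 6.18 in the wild type against 4.52 and 5.85 in the knockout. The pileup of this lost site, 171 and 207 reads, was again above the neighbour's 152 and 161. Another such pair lay at chr4:135943908-135944659, with 225 and 235 reads against 180 and 219 at the neighbour. Its folds were 5.43 and 5.38, and the neighbour's were 4.37 and 5.05 in the wild type against 4.11 and 4.96 in the knockout. At chr2:35161788-35162274 the site and its neighbour were nearly equal in wild type, at 3.73 and 4.52 against 3.76 and 4.35, and the neighbour kept folds of 3.83 and 3.82 in the knockout. That neighbour's folds overlapped between the genotypes.

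In other pairs a minor site was missing beside a much stronger open region. The region chr16:94325563-94326175 had folds of 3.08 and 3.09, and its neighbour, 668 bp away, had 10.5 and 11.4 in the wild type against 9.82 and 10.1 in the knockout. At chr6:6156182-6156657, with folds of 3.95 and 4.16, the neighbour had 10.5 and 10.4 in the wild type against 8.55 and 9.63 in the knockout. At chr4:94869223-94869989 the folds were 4.56 and 4.48, and the neighbour's were 10.1 and 11.6 in the wild type against 9.88 and 11.2 in the knockout. These neighbours were called in all libraries at more than 8-fold enrichment, and the first 2 were lower in both knockout libraries than in either wild-type library. At chr5:142894602-142895709 (folds 2.95 and 3.03) the neighbour had 5.35 and 5.87 against 5.27 and 5.63. At chr5:106021399-106022146 (4.67 and 4.80) it had 7.77 and 9.11 against 7.91 and 9.27, so the folds of both these neighbours overlapped between the genotypes. The remaining region of the 10 highest-ranked, chr15:80588555-80588947, had folds of 4.62 and 5.68 beside a weak neighbour at 1.54 and 1.62 in the wild type against 1.70 and 1.71 in the knockout, where both knockout values lay above both wild-type values. By pileup that neighbour was the larger site, with 376 and 440 reads against 247 and 342 at the loss.

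**Figure D2:**
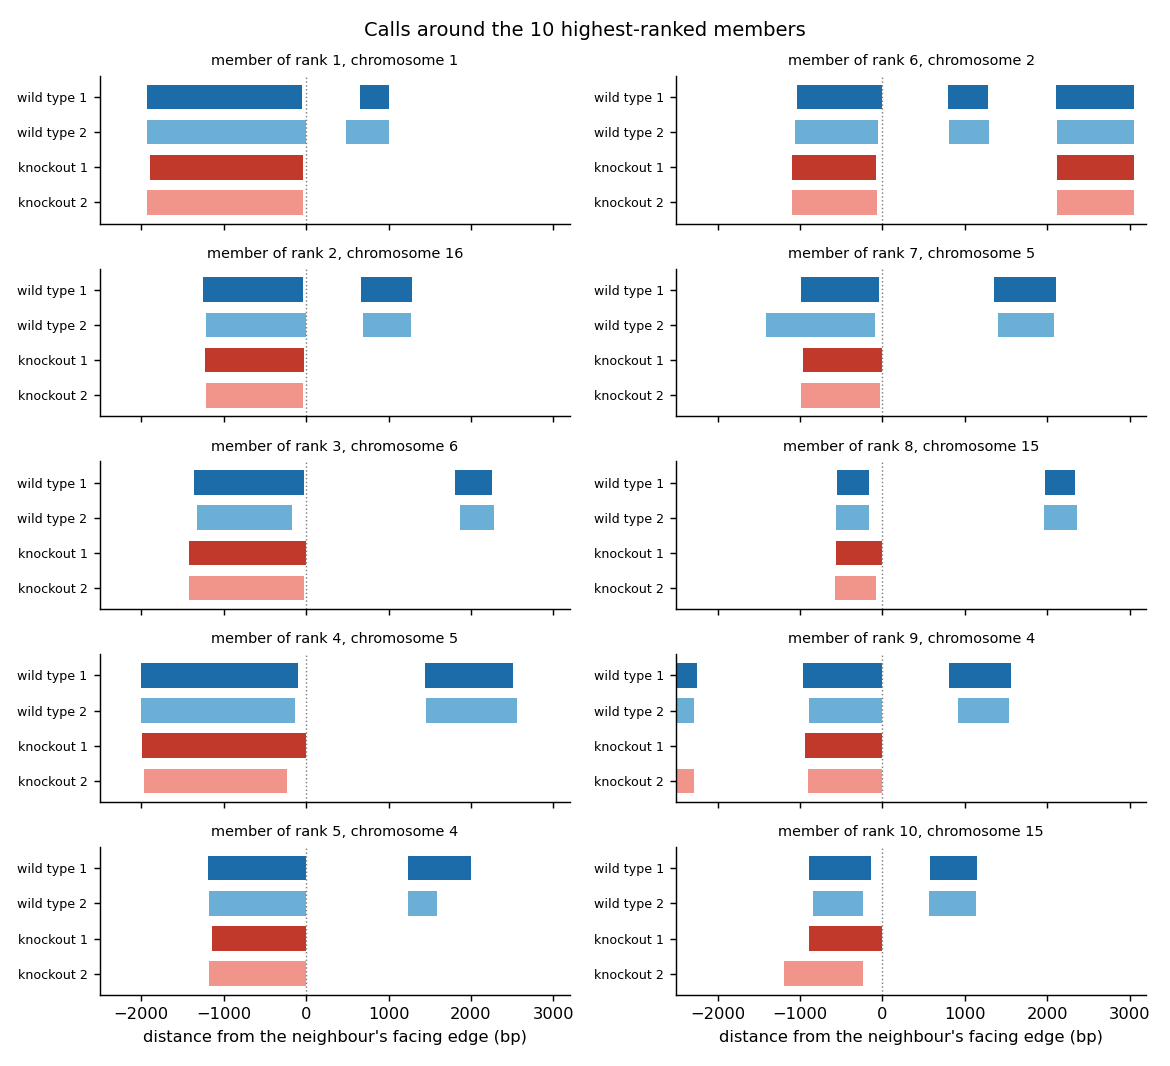
Calls of each library around the 10 flanking losses of highest rank, as distance in bp from the edge of the neighbour that faces the loss, with the neighbour drawn on the left. Each bar is a call, blue in wild type and red in the knockout. The wild-type calls next on the right of the neighbour have no knockout counterpart, while the neighbour is called in all 4 libraries; on chromosome 2 a second retained region follows.

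A retained region lay within 2 kb on both sides of 13 flanking losses (2.65%). The highest-ranked of them, chr2:35161788-35162274, sits 823 and 801 bp from its retained flanks. The nearer flank is the neighbour described above. The other had folds of 5.39 and 5.78 in the wild type against 4.66 and 5.19 in the knockout, lower in the knockout than its wild-type folds. At chr9:62398379-62398823 the folds of 5.02 and 5.47 were above those of the nearer flank, 2.80 and 3.49. The knockout folds of that flank were 2.52 and 2.28. The other flank had 4.66 and 5.26 in the wild type against 2.90 and 4.11 in the knockout. At chr9:67118243-67118693 the lost site had folds of 4.42 and 4.40. The flanks on either side had 5.34 and 6.24, and 3.94 and 5.14, in the wild type, against 5.51 and 5.81, and 2.91 and 3.76, in the knockout. The fourth, chr8:124157840-124158646, had folds of only 1.56 and 1.55 but pileups of 1267 and 1271 reads, because the local background there was 55.2 and 54.0 times the genome-wide level. Its nearer flank had 8.05 and 8.33 in the wild type against 8.65 and 9.66 in the knockout, higher in both knockout libraries. The folds of its other flank overlapped between the genotypes, at 5.77 and 6.16 against 5.62 and 6.34. One retained region was the nearest neighbour of 2 flanking losses, at chr19:57539767-57540392 (folds 2.45 and 2.68) and chr19:57543545-57543960 (2.68 and 2.81), and its own folds were 4.55 and 4.28 in the wild type against 3.30 and 4.15 in the knockout.

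The local background, the read level the peak caller expects around a call, was higher at the flanking losses than at the lost regions further away. In multiples of the genome-wide level of the library, its median was 1.55 and 1.58 at flanking losses and 1.00 and 1.00 at lost regions further away. It stood above the genome-wide level at 84.5% of flanking losses in each wild-type library, against 20.6% and 19.8% of the others. It was over 5 times that level in both libraries at 70 flanking losses (14.3%, Wilson 95% interval 11.4 to 17.6) and at 55 of the others (1.19%, 0.914 to 1.54). Retained regions reached it in 16.5%. A raised local background was shared by other regions within 2 kb of a retained region. Its median there was 1.75 and 1.82 at regions missing in 1 knockout library only, and 3.08 and 3.25 at retained regions. The interval covers counting error only, and neighbouring regions are not independent. The rule itself places an open region within 2 kb of each flanking loss, and its reads may enter the local background. How far the contrast with lost regions further away follows from the rule was not tested. Flanking losses had the lower fold (medians 2.70 and 2.93 against 3.51 and 3.84) but the higher pileup, 5.11 and 5.55 times the genome-wide background against 4.02 and 4.36. The fold of most flanking losses is thus measured against a background above the genome-wide level, modestly so at the 421 below the limit of 5 (medians 1.40 and 1.41), and folds of near and far regions are not on equal terms.

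**Figure D3:**
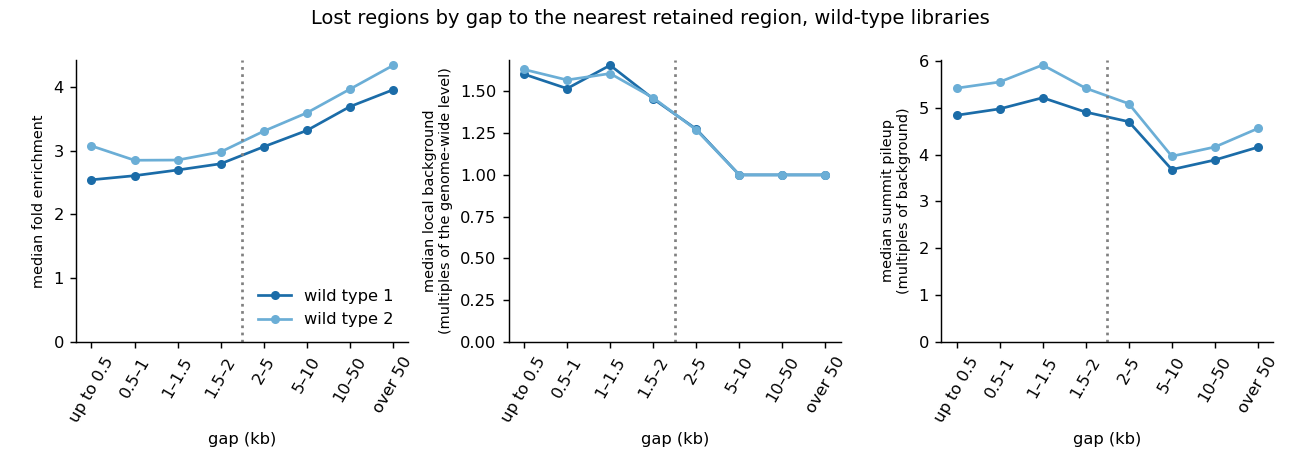
Medians of all lost regions by gap to the nearest retained region, in the 2 wild-type libraries: fold enrichment, local background in multiples of the genome-wide level, and summit pileup in the same multiples. The dotted line marks 2 kb. In wild-type replicate 1 the fold rose from 2.54 at gaps up to 0.5 kb to 3.95 over 50 kb, while the local background fell from 1.60 to 1.00.

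Summed over all distances, losses were about as frequent beside a retained region as elsewhere, but the share varied with distance. Flanking losses were 9.59% of all lost regions (95% interval 8.81 to 10.4), and 9.74% of retained regions likewise had another retained region within 2 kb. The share was 7.66% (6.23 to 9.39) for gained regions, which were called in both knockout and neither wild-type library (1.52% of the merged regions), and 11.2% for the regions missing in 1 knockout library only. Seen from the wild type, 55088 merged regions were called in both libraries, and 9.3% of them were lost. Among the 5446 with a retained region within 2 kb the share was 9.02% (8.28 to 9.81), and among the 49642 others it was 9.33% (9.08 to 9.59). By distance, the share lost was 5.18% (3.73 to 7.16) at gaps up to 0.5 kb, 9.02%, 9.70% and 9.97% in the next 3 steps of 0.5 kb, 8.19% (7.67 to 8.74) from 2 to 5 kb, 6.92% (6.52 to 7.36) from 5 to 10 kb, 9.21% from 10 to 50 kb, and 18.4% (17.3 to 19.4) over 50 kb. The lowest share was thus that of the closest sites, whose interval overlapped that of gaps from 5 to 10 kb, and the highest was that of the most isolated, whose interval overlapped no other. The 3 steps from 0.5 to 2 kb had higher shares than gaps from 5 to 10 kb, with intervals apart. These intervals cover counting error only, regions are not replicates, and whether intervals overlap is no test.

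**Figure D4:**
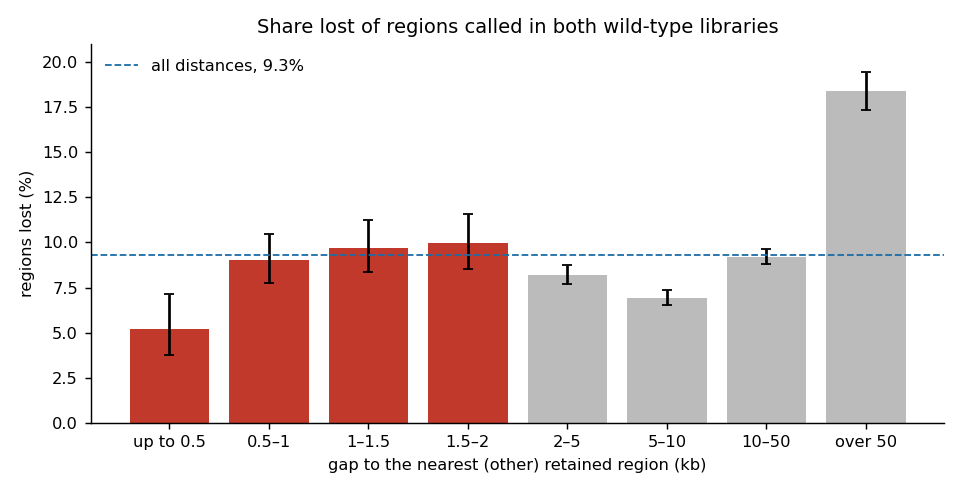
Share of the regions called in both wild-type libraries that had no call in either knockout library, by gap to the nearest other retained region. Error bars are Wilson 95% intervals, red bars are gaps up to 2 kb and the dashed line is the share at all distances, 9.3%. The share is lowest at gaps up to 0.5 kb, 5.18%, and highest over 50 kb, 18.4%.

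Weak wild-type calls were lost far more often than strong ones, both within 2 kb of a retained region and further away. By the lower of the 2 wild-type percentiles, 31.9% of near and 34.2% of far regions of the lowest 10 percentile points were lost, against 0.624% and 0.818% between the 60th and 70th percentiles. Between the 80th and 90th percentiles 0 of 407 near regions were lost (Wilson upper bound 0.935%), and above the 90th 0 of 248 (1.53%). The near regions were lost in a smaller share in the steps of rank up to the 70th percentile, but the intervals were apart in only 2 of them: 13.7% (11.1 to 16.6) against 18.8% (17.7 to 19.9) between the 20th and 30th percentiles, and 9.26% (7.26 to 11.7) against 13.2% (12.2 to 14.1) between the 30th and 40th. Between the 70th and 80th percentiles the shares were 0.194% near and 0.168% far. Here too the intervals cover counting error only and are no test. Split into 4 broad classes of local background, not matched within a class, the near regions had the higher share in all 4. Where the local background was 2 to 5 times the genome-wide level, 6.05% (5.06 to 7.22) of near and 1.46% (1.25 to 1.70) of far regions were lost. The near regions of that class had a median percentile of 49.1 and the far ones of 79.4, so these classes differ in rank as well.

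**Figure D5:**
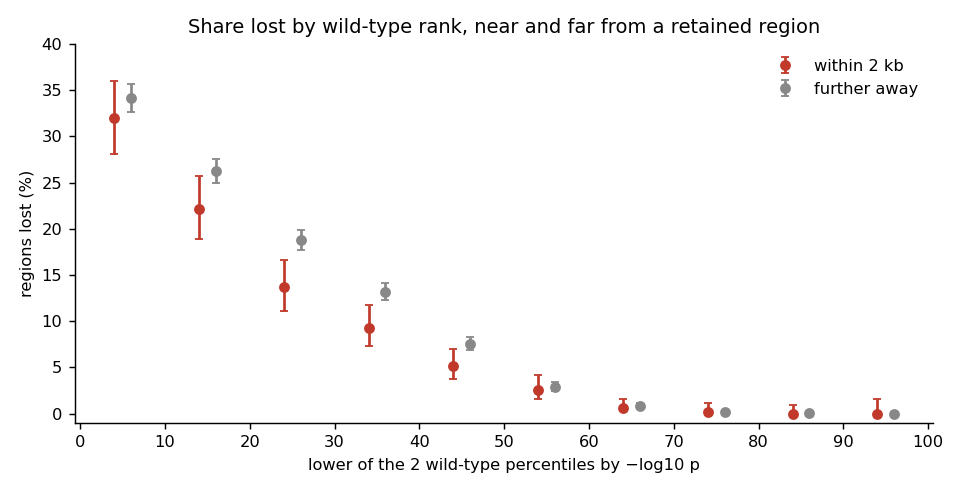
Share lost of the regions called in both wild-type libraries, by the lower of their 2 wild-type percentiles (steps of 10), for regions within 2 kb of another retained region and for those further away. Points are shares and bars Wilson 95% intervals. Between the 20th and 30th percentiles the shares were 13.7% near and 18.8% far, and both sank towards 0 at high ranks.

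How far a flanking loss stood above the calling level was read from the knockout lists. For each loss, the weak end of the knockout calls was taken as the fold that 95% of the calls exceeded, among calls whose local background was within 20% of that at the neighbour. The higher of the 2 knockout levels was used. The lower of the 2 wild-type folds was a median of 1.27 times this level. Against the weak end of its own wild-type list the median ratio was 1.13, since the median level was 2.30 and 2.36 in the wild-type lists and 2.04 in each knockout list. It was more than 2 times the level at 63 of the 491 regions (12.8%), and below it at 110. At chr15:12266549-12267125 the ratio was 3.19, at chr1:89382188-89382705 it was 2.67, and at chr4:135943908-135944659 it was 2.66, while at chr16:94325563-94326175 it was 1.36. The folds come from separate libraries and the knockout value of a lost site is not listed, so these ratios describe distance from the weak end of the lists and are no measure of a change.

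The neighbours were weaker than the typical retained region in every library. Their median fold was 5.21 and 5.99 in the wild type against 3.90 and 4.55 in the knockout, which is 69.9% and 72.3% of the median over all retained regions in the wild-type lists and 76.2% and 75.7% in the knockout lists. Relative to all retained regions of the same list, the neighbours thus stood slightly higher in the knockout lists, by 0.061 in the median log2 fold difference between genotypes. The 4 pairs of single libraries gave 0.042 to 0.068. The fold was below both wild-type values in both knockout libraries at 352 of 490 neighbours (71.8%), against 84.1% of all retained regions, and above both at 13 (2.65%), against 1.13%. Neighbours of regions missing in 1 knockout library only stood at 69.1% and 68.0% in the wild type against 73.5% and 71.6% in the knockout, and retained regions near another retained region at 61.6% and 60.7%, and 69.6% and 67.4%. All 3 of these sets thus stood relatively higher in the knockout lists, and the rise is not called particular to the flanking losses. By fold the 84 neighbours of gained regions went the other way, with a median log2 fold difference between genotypes of −0.47. It was −0.37 over all retained regions and −0.31 at the neighbours of flanking losses. By summit pileup over the genome-wide background they did not, with median log2 differences of −0.504, −0.580 and −0.508 in the same order. For the local background these were −0.003, −0.165 and −0.155.

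In this description without a test, the neighbours showed no clear retreat from the lost site. The edge that faces it lay a median of 8.0 bp further inward in the knockout than in wild type, the opposite edge 4.5 bp, and either edge of all retained regions 8.0 bp. The facing edge moved inward at 277 and outward at 209 of 491. The difference between the facing and opposite medians, 3.5 bp, is smaller than its range over pairs of single libraries, from −5 to 7 bp. The neighbours' calls had median lengths of 922 and 939 bp in wild type and 929 and 926 bp in the knockout.

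Flanking losses lay on 20 chromosomes. Chromosome 11 had the highest share of its lost regions beside a retained region, 13.6% (37 of 272, 10.0 to 18.2), and chromosome 3 the lowest of those with a flanking loss, 4.38% (13 of 297, 2.58 to 7.34). The intervals of these 2 chromosomes alone left out the share over all chromosomes, 9.59%, among 21 looked at. They cover counting error only and are no test. Of the retained regions, 11.1% on chromosome 11 and 10.3% on chromosome 3 had another within 2 kb.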

How the data were processed

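The 4 deposited peak lists, 1 per library and not pooled, were called with MACS2 on GRCm39, per the submitters' processing notes. For the aligner, versions, duplicate filter and Tn5 shift, the sources used here give nothing. As deposited by the authors, a call has a fold enrichment at its summit, a summit position, a −log10 p-value, a −log10 q-value and a display score, which was not used.

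Calls on the 19 autosomes, X and Y were merged where they overlapped by at least 1 bp. Gaps were measured between merged edges. Percentiles rank the −log10 p-value within each list. Summit pileup and local background were recovered from the fold and the Poisson p-value, to within 0.01 in −log10 p for 99.998% or more of calls. No test was made: 2 libraries against 2 allow no permutation p under 0.33, and the calls chose the regions. Named regions were fixed by rule. They were the 10 of highest rank (the lower wild-type percentile) and the 4 highest with retained regions on both sides. Added were the losses around the 3 retained regions with most losses, with ties broken by the rank of their best loss. The 3 smallest and 3 largest gaps, and the 3 just outside 2 kb, were named too. That rule, the regions and the gene lists were chosen with earlier results of these data known. Pileups, the comparison by local background and the weak end of the lists were added after seeing the data. The planned gene and sequence analyses were not run. The merging and recovery were tested on simulated data. Intervals are Wilson 95%. Python 3.11.15, pandas 2.3.3 and statsmodels 0.14.6 were used.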

Additional observations from a re-analysis of the deposited data

How the results depend on the processing

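The number of flanking losses was 209 with lists of equal length, 186 with a limit of 1 kb and 1318 with 5 kb, and between 700 and 1083 when 1 library was left out, since fewer libraries loosen the definition (1035 without wild-type replicate 1, 783 without wild-type replicate 2, 1083 without knockout replicate 2). Their share of the lost regions was 8.44% with a −log10 q of at least 5, 7.42% with equal lists, 8.04% with calls that cover at least 50% of the merged region, 3.63% at 1 kb, 25.7% at 5 kb, and 10.4% to 11.4% with 1 library left out. The neighbours' relative log2 fold difference stayed positive, at 0.097 with equal lists, 0.082 at 1 kb, 0.040 at 5 kb, and 0.041 to 0.053 with 1 library left out. The edge difference turned to −3.5 bp with equal lists and −2.75 bp at 5 kb, was 11.8 bp at 1 kb, and ran from −5.0 to 4.5 bp with 1 library left out; the cause was not tested. Of the 21 named flanking losses, 14 were kept with equal lists, 20 with the stricter q-value, 18 with 50% cover and 10 at 1 kb. Equal lists dropped the 3 with the smallest gaps, both on chromosome 19 and 2 of the 3 with the largest gaps, and kept the 10 of highest rank, which a limit to the strongest calls favours. No paired analysis was possible because no result comes from a test. Weak calls near the end of each list limit every count, and read depth is unknown.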

Other observations

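Flanking losses fell into 400 windows of 1 Mb, of which 319 (79.8%) held 1, 71 held 2, 10 held 3 and none held more. Among the windows with 3, that of chromosome 19 from 57 to 58 Mb had the highest share of lost regions, 10 of 48 regions called in both wild-type libraries (20.8%), and it holds the region that was the nearest neighbour of 2 flanking losses. On chromosome 6 between 114 and 115 Mb, 3 flanking losses were among only 4 losses of 97 such regions, and each of the 3 had retained regions within 2 kb on both sides. The 3 lay at chr6:114485793-114486653, chr6:114490652-114491162 and chr6:114603282-114604052, with wild-type folds of 1.78 and 1.94, 1.75 and 1.74, and 1.79 and 1.76. The first 2 lie on either side of the retained region chr6:114488068-114489224, at gaps of 1414 and 1427 bp, which had folds of 3.22 and 3.09 in the wild type against 2.48 and 2.49 in the knockout. These windows were picked after their counts were seen.

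A knockout call nearer than the edge of the neighbour was found at 5 flanking losses. A gained region lay within 2 kb of 1 flanking loss, and another lost region within 2 kb of 4 (0.815%), against 1.49% of the lost regions further away.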
